A study of Homo sapiens with 6 samples.

Results

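The semaphorin, ephrin and Slit guidance genes were followed in BJ, a human fibroblast line from foreskin, in 3 libraries labelled as control siRNA and 3 labelled as agrin knockdown by siRNA. Agrin is a large proteoglycan that cells secrete into the basement membrane. All 6 libraries were labelled wild type and came from cells grown in RPMI medium with serum; the sources used here do not state the siRNA sequences, their dose or when cells were collected. Nothing in the labels says that libraries of a group were separate cultures, so p-values cover the spread between these samples only, and that spread may be technical. Members were the rows of the deposited table named SEMA, PLXN, EPHA, EPHB, EFNA, EFNB, ROBO, SLIT1 to SLIT3, NRP1 or NRP2, which gave 48 of 14168 genes, 25 ligands and 23 receptors. Of these, 41 had 3 or more of the 6 libraries at 1 or above and were tested, 21 ligands and 20 receptors, among 13206 genes tested in all.

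These 3 systems carry signals between cells and are known for steering growing axons. Semaphorins are secreted or membrane-bound ligands of the plexins, and secreted class 3 semaphorins mostly bind neuropilins, which pair with plexins to signal. Ephrins are held at the membrane and bind EPH receptor tyrosine kinases on the next cell, with signals passing in both directions, and secreted SLIT proteins bind ROBO receptors. In fibroblasts and other mesenchymal cells they act on the cytoskeleton, on adhesion and on the sorting of cells into separate territories.

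The siRNA target was checked first. Library values below are the deposited ones, in scaled CPM (counts per a scaled library size), and are listed for replicates 1, 2 and 3 in order. AGRN read 744, 804 and 790 in the control group and 290, 297 and 265 after knockdown, so 36.4% of the control mean was left (log2 fold change -1.46, SE 0.05, adjusted p = 3.19e-06, limma). The libraries held 42736368 to 48246613 reads on listed genes. The 7 fibroblast markers were COL1A1, COL1A2, PDGFRB, LUM, DCN, THY1 and VIM. They summed to 43053 to 46093 scaled CPM in control libraries and to 40678 to 42338 after knockdown, without overlap. Most of the sum came from COL1A1 (means 15260 and 12670) and COL1A2 (19670 and 19080). By limma 3 of the 7 were called lower (42.9%, beside 28.7% of all tested genes). COL1A2 (-0.04) and DCN (-0.07) were not called, nor were THY1 (0.02) and VIM (0.11), which went the other way. The PDGFRB call held in each alternative, that of LUM was lost without control replicate 1 (adjusted p = 0.0585), and that of COL1A1 was lost in 7 alternatives, with no difference left under quantile normalization. Of markers of other cell types, the endothelial CDH5 was listed at 0 in all libraries and TEK stood at 7.004 to 9.31, and the pigment cell marker PMEL at 1.18 to 1.68. Epithelial markers summed to 40.4 to 47.5 in the control group and 26.6 to 36.7 after knockdown, nearly all from KRT19 (-0.46, limma adjusted p = 0.0158, up to 0.0679 when a control library was dropped), while EPCAM was at most 0.754. The 2 neuronal markers in the table summed to 38.6 to 45.3 and 61.9 to 81.3, nearly all from TUBB3 (0.74, limma adjusted p = 0.000819). The part of these shifts in the results below was not tested. In bulk RNA of this kind, fewer cells of a type and less RNA per cell cannot be told apart.

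The fibroblasts expressed ligands and receptors of all 3 systems. Divided by the length of the merged annotated exons, the most abundant semaphorin was SEMA3C, secreted, at 37.1 scaled CPM per kb in the control group, followed by SEMA5A, a transmembrane semaphorin with thrombospondin repeats, at 31.6. PLXNB2, a receptor of class 4 semaphorins, led the plexins at 57.2 and made up 53.5% ± 1.03 of the per-kb plexin total (SD, n = 3). NRP1 stood at 40.5 per kb against 5.67 for NRP2. SLIT2 stood at 35.8 and SLIT3 at 2.25, and ROBO1, at 18.1, made up 84.9% ± 0.557 of the ROBO total. The ephrins were lower and even, with EFNB1, EFNB2, EFNB3 and EFNA4 between 4.66 and 5.59 per kb and EFNA3 at 0.680. Of the EPH receptors, EPHA2, EPHB4, EPHA4 and EPHB6 lay between 12.4 and 17.1 per kb, and EPHB3 and EPHB2 at 4.46 and 1.70.

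**Figure D1:**
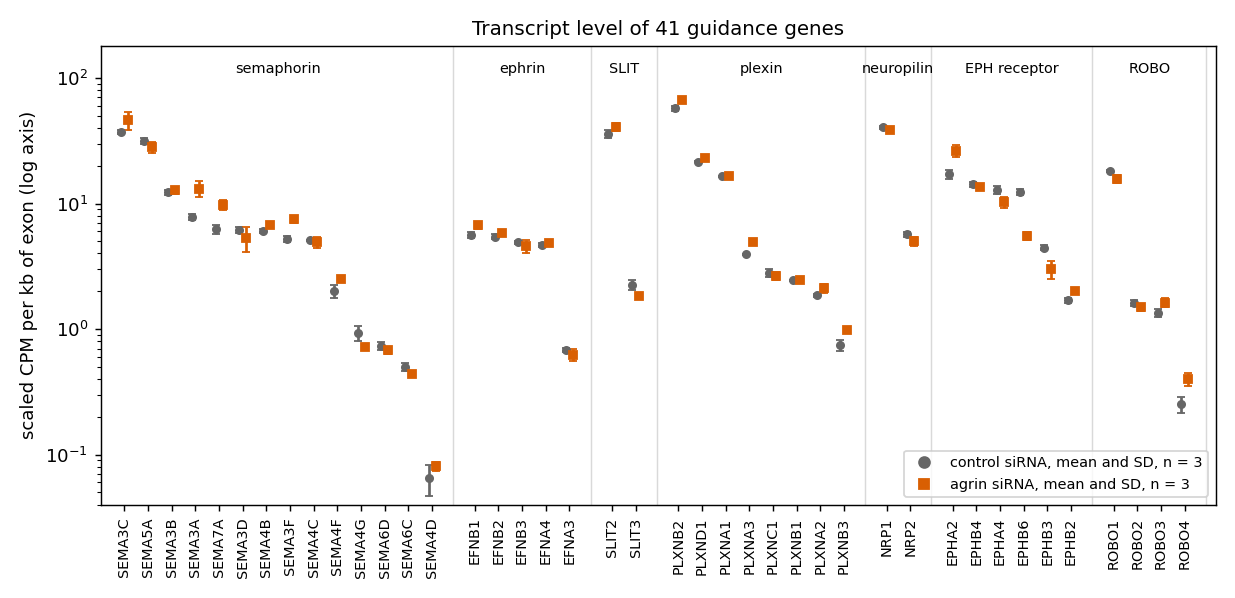
Level of the 41 tested guidance genes, in scaled CPM per kb of merged exon on a log axis, as mean and SD of the 3 libraries of each group (circles control siRNA, squares agrin siRNA). PLXNB2, NRP1, SEMA3C and SLIT2 were the highest control levels of their families and EPHB6 shows the widest gap between the groups, from 12.4 to 5.53 per kb.

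The 7 members under the filter stayed low in both groups. EFNA1 ranged from 0.227 to 0.914 scaled CPM, SEMA4A from 0.406 to 0.814, EFNA5 from 0.328 to 0.667 and SEMA6B from 0.127 to 0.295. EPHA1, EPHA3 and EPHA6 had at most 3 reads in any library. Just inside the filter lay SEMA4D, a transmembrane ligand of PLXNB1, which passed through 4 libraries with values of 0.985, 0.634 and 1.14 in control libraries and 1.23, 1.05 and 1.16 after knockdown, and EFNA3, at 1.09 to 1.35. Just outside lay EFNA1 and SEMA4A.

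In the comparison of agrin siRNA with control siRNA, 14 of the 41 members were higher and 6 lower at an adjusted p under 0.05 (limma, two-sided, adjusted over all 13206 genes). These 20 are 48.8% of the members, beside 28.7% of all tested genes, 15.2% higher and 13.5% lower. The changes were modest. SEMA3A, SEMA7A, EPHA2 and EPHB6 changed by at least 1.5-fold on the log2(value + 0.5) scale, and ROBO4, a low gene whose change this scale understates, did so by its means (159% of control). The median absolute log2 fold change was 0.21 over the members and 0.11 over all tested genes. The groups had no overlapping values in 24 members, the 20 called ones and 4 uncalled ones, beside 45.2% of all tested genes. Dropping control replicate 1 left 8 higher and 3 lower, dropping control replicate 2 left 11 and 2, and dropping agrin siRNA replicate 3 left 9 and 5. With agrin siRNA replicate 2 dropped, 14 and 9 were called. The share of all tested genes called with a library dropped is not given here, so these counts cannot be set against it. A scaling that ignored mitochondrial genes and the 10 most abundant ones gave 11 and 7 members, and 41.1% instead of 52.9% of the calls over all genes were then higher.

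**Figure D2:**
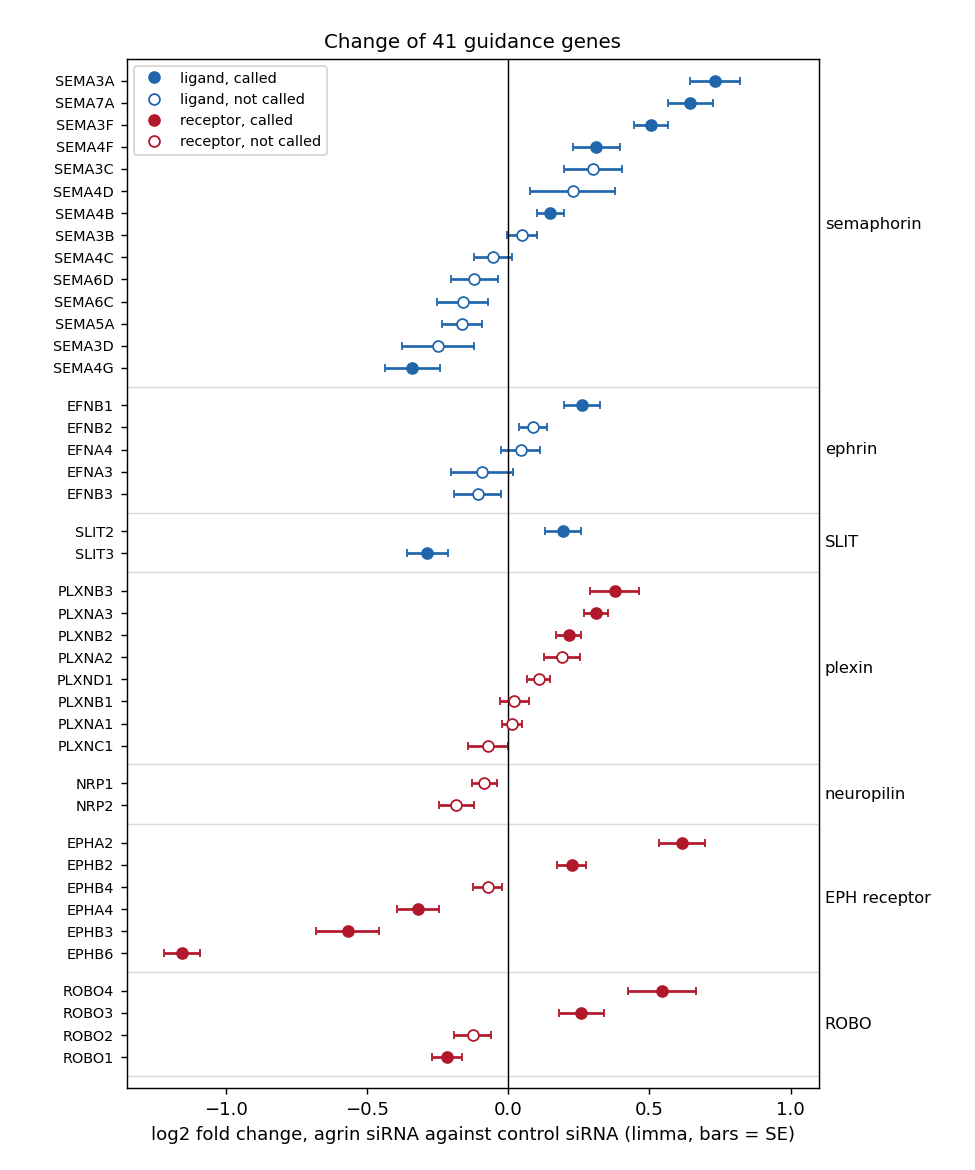
Log2 fold change of the 41 members with its standard error (limma), by family, with ligands in blue and receptors in red and called genes filled. SEMA3A at 0.73 and EPHB6 at -1.15 are the ends of the range, and the EPH receptors and ROBO receptors lie on both sides of 0.

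Ligands and receptors had similar counts. Of 21 ligands, 7 were higher (33.3%) and 2 lower (9.52%), and of 20 receptors, 7 were higher (35%) and 4 lower (20%). Over all tested genes 15.2% were higher and 13.5% lower. The median log2 fold change was 0.05 over ligands and 0.02 over receptors, beside a median within 0.01 of 0 over all tested genes. Relative to the control mean, the ligand median was 0.07, 0.08 and 0.06 after knockdown, and the receptor median was 0.04, -0.02 and 0.02. The difference between the lists was not tested. The ligand counts moved with single libraries: dropping control replicate 1 left 3 higher and 0 lower by limma, dropping control replicate 2 left 4 and 0, and dropping agrin siRNA replicate 3 left 3 and 0. With control replicate 3 dropped, 4 were higher, and the lower ligands numbered 1 with agrin siRNA replicate 1 dropped and 4 with its replicate 2 dropped. The lower receptors numbered 2 without control replicate 2.

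Among the semaphorins, 5 of 14 were higher and 1 lower (42.9% called, beside 28.7% of all tested genes). SEMA3A, the secreted ligand that repels axons and collapses growth cones through NRP1, rose to 167% of the control mean. It stood at 68.7, 74.8 and 76.2 in control libraries and at 107, 142 and 119 after knockdown (log2 fold change 0.73, SE 0.09, adjusted p = 0.000456, limma). The groups did not overlap, and agrin siRNA replicate 2 was the highest. SEMA3F, a secreted ligand that binds NRP2, stood at 26.3, 25.9 and 23.8 and at 38.3, 33.9 and 36.1 in the same order (log2 fold change 0.50, SE 0.06, adjusted p = 0.000416, limma). SEMA7A, a lipid-anchored semaphorin that binds PLXNC1 and integrins, stood at 25.8, 21.6 and 23.5 in controls and at 33.9, 40.6 and 37.4 after knockdown (log2 fold change 0.64, SE 0.08, adjusted p = 0.00047, limma). For SEMA3F and SEMA7A too every agrin siRNA library was above every control library, and all 3 calls held under each of the 18 alternatives.

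The transmembrane class 4 semaphorins moved less. SEMA4F rose, with 10.9, 12.7 and 14.0 in control libraries and 15.6, 16.2 and 15.1 after knockdown (log2 fold change 0.31, SE 0.08, adjusted p = 0.0227, limma). SEMA4B was near the threshold, with 42.3, 44.1 and 41.3 against 49.7, 45.4 and 46.8 (log2 fold change 0.15, SE 0.05, adjusted p = 0.0469, limma), and its call was lost in 13 of the 18 alternatives, edgeR included (adjusted p = 0.0548). SEMA4G fell, from 4.75, 5.66 and 4.35 to 3.70, 3.84 and 3.75 (log2 fold change -0.34, SE 0.10, adjusted p = 0.0296, limma). In all 3 genes the groups did not overlap, but SEMA4G rests on 150 to 223 reads a library, and 22.3% of its exon length is shared with MRPL43 on the opposite strand. The calls of SEMA4F and SEMA4G were lost when control replicate 1, control replicate 2 or agrin siRNA replicate 3 was dropped, and that of SEMA4G also when agrin siRNA replicate 1 was (limma adjusted p up to 0.0797 for SEMA4F and 0.109 for SEMA4G).

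SEMA3C, SEMA3D and SEMA5A varied among the agrin siRNA libraries. Those libraries also differed more among themselves over the whole table than the controls did. A chi-square of the reads per degree of freedom is larger the more a pair of libraries differs. It was 24.8 for agrin siRNA replicates 1 and 2, 10.2 for 1 and 3 and 13.9 for 2 and 3. Between control libraries it was 4.41 to 5.85. SEMA3C stood at 240.3, 233 and 224 in controls and at 235, 327 and 306 after knockdown (log2 fold change 0.30, SE 0.10, adjusted p = 0.0536, limma), so replicate 1 lay inside the control range and the others above it. Without agrin siRNA replicate 1 its log2 fold change was 0.44 (limma adjusted p = 0.000131). With all 6 libraries DESeq2 called it higher (adjusted p = 0.00717) and edgeR did not (0.0514). SEMA3D, a secreted semaphorin, stood at 49.9, 52.6 and 47.4 and at 34.2, 52.9 and 40.7, and SEMA5A at 403, 383 and 359 and at 308, 377 and 341. Both were lowest in agrin siRNA replicate 1 and highest in replicate 2 within that group. Without agrin siRNA replicate 2 SEMA3D was at -0.41 (limma adjusted p = 0.000775; 0.174 with all libraries) and SEMA5A at -0.24 (limma adjusted p = 0.00602; 0.117 with all libraries). The other uncalled semaphorins, SEMA3B, SEMA4C, SEMA4D, SEMA6C and SEMA6D, had log2 fold changes from -0.16 to 0.23. SEMA3A and SEMA3D are neighbours on chromosome 7, both on the minus strand with 502828 bases between them, and SEMA3F and SEMA3B lie on the plus strand of chromosome 3 with 78482 bases between them; in each pair the first was called and the second was not (SEMA3B 0.05, limma adjusted p = 0.537).

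Of 8 plexins, 3 were higher and 0 lower by limma. These are 37.5% called, beside 28.7% of all tested genes, 15.2% higher and 13.5% lower. At an unadjusted p under 0.05, 5 were higher and 0 lower, and edgeR and DESeq2 gave the same counts as limma. The shares of all tested genes in these other settings are not given here. PLXNA3, a plexin that pairs with NRP2 for SEMA3F, stood at 46.5, 45.7 and 46.0 in control libraries and at 55.0, 59.3 and 57.6 after knockdown (log2 fold change 0.31, SE 0.04, adjusted p = 0.000805, limma). PLXNB2 stood at 417, 432 and 397 and at 473, 495 and 477 (log2 fold change 0.21, SE 0.04, adjusted p = 0.00597, limma), and PLXNB3, a receptor of SEMA5A, at 4.90, 5.84 and 4.91 and at 6.81, 7.31 and 6.61 (log2 fold change 0.38, SE 0.09, adjusted p = 0.011, limma). None of these 3 genes overlapped between the groups, and the calls of PLXNA3 and PLXNB2 held in each alternative, while that of PLXNB3 was lost without control replicate 1 (adjusted p = 0.0557) and at the stricter threshold. PLXNB3 shares 20.4% of its exon length with SRPK3 on the same strand, so part of its reads is uncertain. PLXNA2 (0.19, limma adjusted p = 0.0513) and PLXND1 (0.11, 0.0791) missed the threshold without overlap between groups; PLXNA2 passed it when agrin siRNA replicate 1 was dropped, and PLXND1 when replicate 2 of that group was. PLXNA1, PLXNB1 and PLXNC1 lay between -0.07 and 0.02. The groups did not overlap in 5 of the 8 plexins, beside 45.2% of all tested genes. Summed over the 8 plexins, the level was 932 ± 17.9 scaled CPM in control libraries and 1033 ± 4.35 after knockdown (SD, n = 3).

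The neuropilins were not called by limma (1 of 2 at an unadjusted p under 0.05, with no share over all tested genes given for that threshold). NRP1 stood at 474, 472 and 454 in control libraries and at 421, 458 and 442 after knockdown (log2 fold change -0.09, SE 0.04, adjusted p = 0.176, limma). NRP2 stood at 82.6, 75.5 and 78.4 and at 67.5, 64.7 and 76.1 (log2 fold change -0.18, SE 0.06, adjusted p = 0.0531, limma), with agrin siRNA replicate 3 inside the control range. NRP2 was close to the threshold. On the recovered reads edgeR and DESeq2 called it lower (adjusted p = 0.0497 and 0.0413), and limma did so after rescaling without the most abundant genes (0.0307) and without agrin siRNA replicate 3 (0.0167). NRP1 was called lower by limma without agrin siRNA replicate 2 (adjusted p = 0.046).

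The EPH receptors changed in opposite directions, with 2 of 6 higher and 3 lower (83.3% called, beside 28.7% of all tested genes). EPHB6, an EPH receptor that lacks kinase activity, had the largest change of the members, to 44.6% of the control mean. It stood at 66.3, 69.6 and 62.5 in control libraries and at 32.0, 28.996 and 27.4 after knockdown (log2 fold change -1.15, SE 0.06, adjusted p = 6.91e-06, limma). The groups lay far apart, and 0.447% of all tested genes had a larger absolute log2 fold change. EPHA2, a receptor of A-type ephrins found in many epithelial and mesenchymal cells, rose to 154%, from 69.5, 65.9 and 77.8 to 102, 102 and 123.3 (log2 fold change 0.61, SE 0.08, adjusted p = 0.000701, limma). EPHB3, a receptor of B-type ephrins, fell from 20.2, 19.2 and 21.3 to 14.9, 10.9 and 14.964 (log2 fold change -0.57, SE 0.11, adjusted p = 0.00494, limma), with agrin siRNA replicate 2 the lowest. The calls of these 3 genes held in each of the 18 alternatives.

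EPHA4, which binds ephrins of both types, stood at 94.3, 105 and 91.9 in control libraries and at 70.0, 85.3 and 78.2 after knockdown (log2 fold change -0.32, SE 0.07, adjusted p = 0.012, limma). Its groups did not overlap, and without control replicate 2 the call was lost (adjusted p = 0.0532). EPHB2, another receptor of B-type ephrins, stood at 21.5, 22.1 and 20.3 and at 24.9, 25.4 and 24.5 (log2 fold change 0.22, SE 0.05, adjusted p = 0.0112, limma). EPHB4, the main receptor of EFNB2, was not called (-0.07, limma adjusted p = 0.326). The sum over the 6 receptors was 62.7 ± 1.19 scaled CPM per kb in controls and 60.6 ± 3.13 after knockdown (SD, n = 3), with overlapping libraries. In scaled CPM, without the division by length, it was 367 ± 7.95 and 342 ± 13.1, and the libraries did not overlap. The composition of the per-kb sum differed. EPHA2 made up 27.2% ± 2.20 of this sum in controls and 43.3% ± 2.55 after knockdown, EPHB6 19.8% ± 1.17 and 9.16% ± 1.08, and EPHB4 22.6% ± 0.492 and 22.3% ± 1.31.

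**Figure D3:**
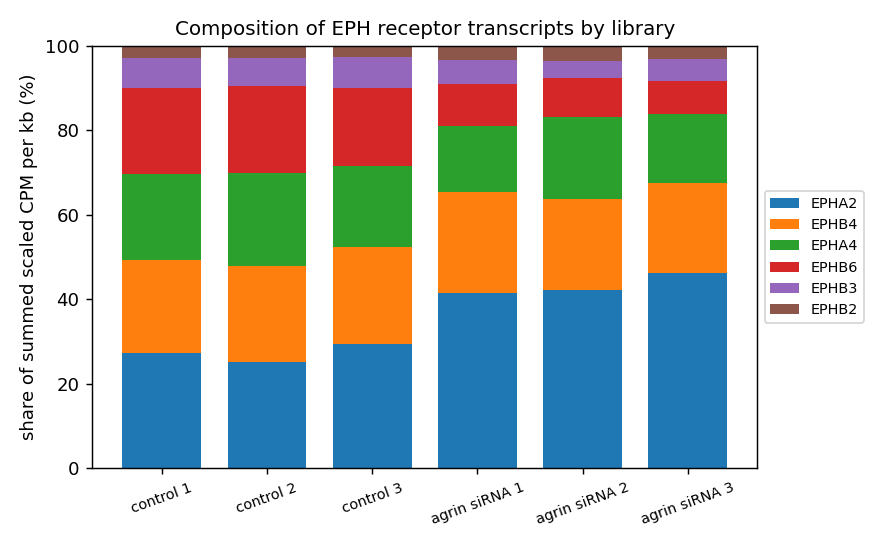
Share of each of the 6 EPH receptors in their summed scaled CPM per kb, in percent, in each library. The EPHA2 share is larger and the EPHB6 share smaller in every agrin siRNA library than in any control library.

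The windows of 250 bases before and 50 after the annotated start are shown for the 3 EPH receptors with the largest changes, since they belong to one family and went in different directions. They are RefSeq sequences on GRCh38.p14, read 5′ to 3′ on the gene's strand. Capitals mark matches on either strand to 6 motifs. These are the cAMP response element or CRE, written TGACGTCA, the AP-1 site, written TGANTCA, the TEAD site, written GGAATG, the GC box, written GGGCGG, the core promoter box written TATAAA, and the box written CCAAT. EPHA2 lies at chr1:16156020-16156319 on the minus strand, EPHB6 at chr7:142862506-142862805 on the plus strand and EPHB3 at chr3:184561535-184561834 on the plus strand. The EPHB6 window lies at the RefSeq start, inside the gene as GENCODE 29 draws it.
EPHA2: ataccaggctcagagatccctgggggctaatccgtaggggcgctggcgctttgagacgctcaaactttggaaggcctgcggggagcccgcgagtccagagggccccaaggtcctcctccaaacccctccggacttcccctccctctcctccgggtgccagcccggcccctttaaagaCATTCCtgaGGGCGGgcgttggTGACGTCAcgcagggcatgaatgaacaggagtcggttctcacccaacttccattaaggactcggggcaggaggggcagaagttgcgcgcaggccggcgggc
EPHB6: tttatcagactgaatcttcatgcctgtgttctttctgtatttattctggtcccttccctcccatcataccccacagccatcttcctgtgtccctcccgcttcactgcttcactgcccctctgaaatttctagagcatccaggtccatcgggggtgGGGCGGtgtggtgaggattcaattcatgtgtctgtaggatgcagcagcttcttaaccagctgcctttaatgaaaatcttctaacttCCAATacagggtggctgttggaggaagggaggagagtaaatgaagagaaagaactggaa
EPHB3: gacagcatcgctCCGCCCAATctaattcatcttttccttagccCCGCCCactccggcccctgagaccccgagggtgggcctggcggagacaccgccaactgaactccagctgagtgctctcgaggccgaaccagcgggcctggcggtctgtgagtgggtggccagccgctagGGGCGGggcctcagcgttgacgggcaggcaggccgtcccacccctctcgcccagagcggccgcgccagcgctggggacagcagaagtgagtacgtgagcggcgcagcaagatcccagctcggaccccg
The EPHA2 window, of the receptor that rose, holds 20 CG dinucleotides, the EPHB6 window 3 and the EPHB3 window 26, where the median over all 35116 windows in the table is 14. EPHA2 matches the CRE letters, found in 1.85% of all windows, the TEAD letters, found in 14.0%, and the GC box, found in 45.0%. The other members that matched the CRE letters, SEMA3B (log2 fold change 0.05) and SEMA4C (-0.05), were not called. EPHB6 and EPHB3 both match the GC box and CCAAT (in EPHB3 a reverse-strand GC box overlaps CCAAT), the latter found in 34.6% of all windows. AP-1 letters occur in 7.71% of all windows and TATA letters in 11.5%, and neither occurs in these 3. Of the 41 tested members 38 had a window, 59 windows in all since 14 genes had more than 1, and 79.7% of these held the GC box, 30.5% CCAAT, 11.9% TEAD, 5.08% CRE, 1.69% AP-1 and 1.69% TATA letters. These matches are a description, and no binding was measured.

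Of the ephrins, EFNB1, a transmembrane ligand of EPHB receptors, rose, from 18.7, 19.5 and 17.4 in control libraries to 22.3, 20.9 and 23.6 after knockdown (log2 fold change 0.26, SE 0.06, adjusted p = 0.0152, limma). Its groups did not overlap, and the call was lost without control replicate 1, control replicate 3 or agrin siRNA replicate 3 (adjusted p up to 0.0692). EFNB2, EFNA4, EFNA3 and EFNB3 were not called, with log2 fold changes from -0.11 to 0.09. EFNA3 and EFNA4 are adjacent on chromosome 1 and share 44.7% and 15% of their exon length with AL691442.1, a transcript annotated across both, so their reads are uncertain.

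The SLIT ligands went in different directions. SLIT2 stood at 358, 322 and 365 in control libraries and at 366, 415 and 415 after knockdown (log2 fold change 0.20, SE 0.06, adjusted p = 0.0459, limma), with agrin siRNA replicate 1 just above the highest control. Its call was lost in 12 of the 18 alternatives, edgeR included (adjusted p = 0.0575). SLIT3, at 33.7, 34.1 and 28.6 and 24.8, 27.8 and 26.0, fell (log2 fold change -0.29, SE 0.07, adjusted p = 0.0184, limma), and its groups did not overlap. That call was lost without control replicate 1, control replicate 2 or agrin siRNA replicate 3 (adjusted p up to 0.0838).

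Of the ROBO receptors, ROBO1, the main one in these cells, fell from 199, 201 and 192 in control libraries to 156, 181 and 173 after knockdown (log2 fold change -0.22, SE 0.05, adjusted p = 0.0148, limma). The call was lost without control replicate 1 or control replicate 2 (adjusted p up to 0.0643). ROBO4, best known from endothelial cells, rose from 1.87, 1.47 and 1.97 to 2.57, 2.68 and 3.18 (log2 fold change 0.55, SE 0.12, adjusted p = 0.00896, limma), on 58 to 140 reads a library, and its call held in each alternative that tested it. Of the endothelial markers in the table, CDH5 was at 0 in all 6 libraries, and TEK, at 7.004 to 7.80 in control libraries and 7.98 to 9.31 after knockdown, was not called (log2 fold change 0.16). ROBO3, known for its part in midline crossing of axons, stood at 8.79, 10.2 and 9.41 and 12.5, 10.6 and 11.2 (log2 fold change 0.26, SE 0.08, adjusted p = 0.0392, limma), and its call was lost in 8 alternatives. ROBO3 and ROBO4 end 2220 bases apart on chromosome 11 on opposite strands, and annotated antisense transcripts share 10.6% and 6.37% of the ROBO4 exon length. ROBO2 was not called (-0.13, limma adjusted p = 0.179).

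**Figure D4:**
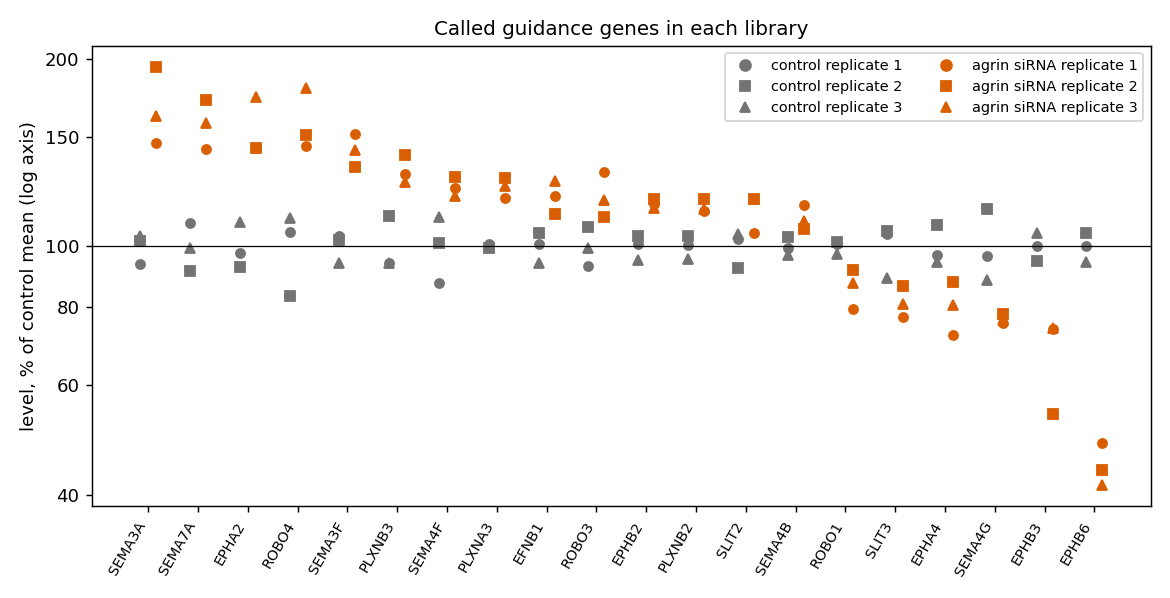
Level of the 20 called members in each library, in percent of the control mean on a log axis (gray control, orange agrin siRNA, marker shape the replicate number), ordered by log2 fold change. The genes shown were called on these same values. No agrin siRNA point overlaps the control points of its gene, and 45.2% of all tested genes likewise had no overlap. EPHB6 lies lowest at a mean of 44.6%.

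The level of a ligand relative to a receptor that it is known to bind was compared within each library for 18 pairs, listed after the values had been seen; many pairs share a gene, and no test was run. The ratio was higher after knockdown without overlap in 11 pairs, lower without overlap in 2, and overlapping in 5. These counts depend on the pairs chosen. No pair held EPHA2, which rose (0.61) while the tested A-type ephrins EFNA3 (-0.09) and EFNA4 (0.04) were not called. EPHB6, which fell (-1.15), and ROBO3 and ROBO4, which rose, were also in no pair. Of all tested genes 45.2% did not overlap between the groups, and no such share was computed for ratios of other gene pairs. The log2 ratio of SEMA3A to NRP1 was 0.82 higher in the agrin siRNA group (SD 0.11 among control and 0.15 among agrin siRNA libraries), and that of SEMA3F to NRP2 was 0.69 higher (SD 0.09 and 0.13). The ratio of SEMA7A to PLXNC1 was 0.71 higher (SD 0.04 and 0.23). In these pairs the ligand rose and the receptor was not called. For EFNB1 and EPHB3 the ratio was 0.83 higher (SD 0.15 and 0.18), and for SLIT2 and ROBO1 0.41 higher (SD 0.12 and 0.03), with the ligand up and the receptor down. The 2 lower ratios were those of SEMA5A to PLXNB3, with a log2 difference of -0.54 (SD 0.15 and 0.11), and of SEMA4C to PLXNB2, with -0.27 (SD 0.06 and 0.17). The ratio of SLIT3 to ROBO1, which both fell, differed by -0.07 (SD 0.10 and 0.04), and that of EFNB1 to EPHB2, which rose together, differed by 0.04 (SD 0.02 and 0.11). The other overlapping pairs were SEMA3C with PLXND1 (0.19), SEMA4D with PLXNB1 (0.21) and EFNB2 with EPHB4 (0.16), and the other higher ratios without overlap ran from 0.19 for SEMA3F to PLXNA3 to 0.72 for SEMA3A to PLXNA1. Leaving out any library kept the direction of each pair other than EFNB1 to EPHB2, which ran from -0.02 to 0.09.

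Genes that act downstream of these receptors were taken from lists of pathway genes, written with earlier results of these data known. Of 26 tested genes of semaphorin and plexin signalling, 5 were higher and 3 lower (median log2 fold change 0.00), which is 30.8% called, beside 28.7% of all tested genes. The called genes with the largest changes were FARP2, an exchange factor downstream of plexin A receptors (-0.61, limma adjusted p = 0.00165), the small GTPases RRAS (0.40, 0.000685) and RRAS2 (0.34, 0.00214), on which plexins act as GTPase activating proteins, and MICAL2, an actin-oxidizing enzyme (0.25, 0.0499), whose call was lost in 13 alternatives, edgeR included (adjusted p = 0.0531). Of 23 tested genes of ephrin and EPH signalling, 3 were higher and 3 lower (median -0.06), or 26.1% called, again near the share over all genes. They were led by PDZRN3, a ubiquitin ligase (0.40, limma adjusted p = 0.00201), the kinase ABL2 (-0.38, 0.00603), ADAM10, the protease that cleaves ephrins from the membrane (0.31, 0.00211), and the adaptor CRK (-0.28, 0.00161). The ADAM10 level was 257 ± 5.21 scaled CPM in controls and 319 ± 21.0 after knockdown (SD, n = 3).

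Of 21 tested genes of Slit and ROBO signalling, 0 were higher and 4 lower by limma (median -0.06), or 19% called, below the 28.7% over all genes. At an unadjusted p under 0.05, 3 were higher and 8 lower, edgeR called 0 and 4, and DESeq2 called 0 and 6. For these 3 settings no share over all tested genes is given. The lower genes were FLRT3 (-0.61, limma adjusted p = 0.00206), a membrane protein that interacts with ROBO1, CAP2 (-0.31, 0.000823), an actin regulator, EVL (-0.30, 0.0162), an actin polymerization factor, and CDC42 (-0.15, 0.0125), a small GTPase. The calls of EVL and CDC42 were lost without control replicate 2, and that of EVL also without control replicate 3 or agrin siRNA replicate 3 (limma adjusted p up to 0.071 and 0.0668). Of 16 tested genes of other guidance systems, 2 were higher and 6 lower (median -0.10), or 50% called, FLRT3 again among them. RGMA, a repulsive ligand of neogenin, fell from 3.79 ± 0.424 to 1.42 ± 0.315 scaled CPM (SD, n = 3; -1.17, limma adjusted p = 0.000323), while its relative RGMB rose (0.35, 0.000954). NRG1, a ligand of ERBB receptors, rose (0.67, 0.000694), and NTNG1, a membrane-anchored relative of netrins, fell (-0.39, 0.00654).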

How the data were processed

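RNA-seq values of 6 libraries of BJ cells, 3 per group by the labels, were used. The authors deposited 1 table of normalized signal that its name calls CPM; the tools were STAR 2.6.1d, SAMtools, HTSeq and edgeR and the build was hg38, per the submitters' processing notes. The sources used here do not state the strand setting of the counting, the annotation or the normalization factors. The columns sum to between 1073188 and 1096534, and 100% of values were whole reads within 0.01 of a read once divided by what 1 read was worth, so 3 reads equal 0.0681 to 0.0761. In the text, scaled CPM means the deposited signal values. The unit was a scaled CPM instead of CPM, and the planned test was kept.

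A gene needed 3 libraries at 1 or above, which 13206 met; these were fitted by limma 3.58.1 (R 4.3.3) after log2(value + 0.5) (trend in the variance prior, no covariate, two-sided, Benjamini-Hochberg over all genes). Fold changes on this scale understate the change of low genes. The recovered reads were tested with edgeR 4.0.16 and DESeq2 1.42.0 as alternatives. The limma fit was checked on simulated reads. The members and lists were chosen with earlier results of these data known. All members above the filter are reported, with values in every library for called ones and for the most abundant per kb of each family; NRP2, SEMA3D and SEMA5A were added after their values were seen, as were the 18 pairs. Of each list the up to 4 called genes with the largest change are named; RGMB was named after its values were seen. Exon lengths and positions are from GENCODE 29 on GRCh38, since hg38 is the same assembly, and matched all members by symbol. Figures were drawn with matplotlib 3.10.9.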

Additional observations from a re-analysis of the deposited data

How the results depend on the processing

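With a threshold of 0.01 the counts were 7 members higher and 2 lower, 3 ligands higher and 0 lower, and 4 receptors higher and 2 lower. With a mean of at least 5 as the filter, 1 ligand was lower and the ligand median was 0.088. Rescaling without mitochondrial and the 10 most abundant genes gave a ligand median of 0.019 and a receptor median of -0.01. The median over all tested genes moved down too under this rescaling, to -0.027. Leaving out 1 library at a time gave 8 to 14 members higher and 2 to 9 lower. Of the ligands, 3 to 7 were then higher and 0 to 4 lower, and of the receptors 5 to 8 higher and 2 to 5 lower. Shares of all tested genes at the threshold of 0.01 or with a library left out are not given here. The medians then ran from 0.039 to 0.084 over ligands and from -0.01 to 0.04 over receptors. Deviations of same-numbered replicates correlated at -0.04, 0.17 and 0.20, and those of differently numbered ones at -0.33 to 0.15. Whether the replicate numbers pair the samples cannot be told from these values. The replicate block gave 13 members higher and 7 lower. On the recovered reads edgeR called 12 higher and 7 lower (18 members were called by both edgeR and limma), and DESeq2 called 14 and 7. Of 20 called members, 9 kept their call under each of the 18 alternatives that tested them and 11 lost it under at least 1, and 7 uncalled members passed under at least 1. No called member, nor AGRN, changed sign under any alternative. The block brought NRP2 (adjusted p = 0.0343) and SEMA3C (0.0289) past the threshold and lost ROBO3 (0.0529) and SEMA4B (0.0663) by limma. The cause of these shifts was not tested, except that leaving out a library reduces the samples. Groups of 3 do not allow an exact permutation p below 0.1. Among the tested members the standard errors were largest for SEMA4D (0.15), SEMA3D (0.13) and ROBO4 (0.12). SEMA4D and ROBO4 had few reads, while SEMA3D had 1386 to 2273 a library.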
